A study of Mus musculus with 6 samples.

Results

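Mitochondrial fatty acid oxidation and branched-chain amino acid oxidation were followed in brown adipose tissue through 35 genes chosen for their enzyme function. Their symbols were looked up in the deposited table, and 34 of the table's 12966 genes were found, 19 of fatty acid oxidation and 15 of branched-chain oxidation. Dci and Peci stand in the table under their newer symbols Eci1 and Eci2, and Pccb was not found in it, so Pccb was not analysed here. RNA was sequenced from male C57BL/6J mice aged 10 weeks, in 2 groups of 3 libraries. The BKO group was Bscl2f/f Ucp1Cre, carrying floxed alleles of Bscl2, the gene of the lipid droplet protein seipin, together with a Cre recombinase driven by the Ucp1 promoter, which is active in brown adipocytes. The Ctrl group was Bscl2f/f without that Cre, so both groups carried the floxed alleles, and an effect of the Cre itself cannot be told apart from that of the deletion. Cells of the tissue that do not express Ucp1 keep their floxed Bscl2. Whether the libraries of a group are separate animals is not in the labels, so p-values cover the spread between these libraries, which may be technical.

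Long-chain fatty acids enter mitochondria on carnitine, through an outer membrane transferase, a translocase and an inner transferase. Inside, repeated rounds of dehydrogenation, hydration, a further dehydrogenation and thiolysis release acetyl-CoA, and the flavin-linked dehydrogenases pass their electrons through the electron transfer flavoprotein to the respiratory chain. Leucine, isoleucine and valine share a transaminase and a dehydrogenase complex and then follow separate arms that end in acetyl-CoA or, by way of propionyl-CoA, in succinyl-CoA. Brown adipocytes are rich in these enzymes and burn both kinds of fuel for heat.

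The 3 members whose BKO libraries all lay above all Ctrl libraries were Cpt1a, Bcat2 and Bckdhb. Their promoters are shown as the 250 bases before the start of the gene, from RefSeq on the build GRCm38.p6, which is newer than the build NCBIM37 of the deposited values. The Cpt1a sequence lies at chr19:3323051-3323300, the Bcat2 sequence at chr7:45569903-45570152 and the Bckdhb sequence at chr9:83924887-83925136, all on the plus strand. Bcat2 and Bckdhb have 2 starts each in the table, and the first listed was used. Capitals mark AGGTCA, the hexamer bound by many nuclear receptors, GGGCGG, the GC box, and CCAAT, each searched on both strands, so that their reverse complements are marked too.
Cpt1a: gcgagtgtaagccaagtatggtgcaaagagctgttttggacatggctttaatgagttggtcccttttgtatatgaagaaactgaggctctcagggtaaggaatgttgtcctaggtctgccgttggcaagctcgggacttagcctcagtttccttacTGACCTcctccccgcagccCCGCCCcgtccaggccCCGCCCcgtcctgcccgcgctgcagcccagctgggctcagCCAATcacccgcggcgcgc
Bcat2: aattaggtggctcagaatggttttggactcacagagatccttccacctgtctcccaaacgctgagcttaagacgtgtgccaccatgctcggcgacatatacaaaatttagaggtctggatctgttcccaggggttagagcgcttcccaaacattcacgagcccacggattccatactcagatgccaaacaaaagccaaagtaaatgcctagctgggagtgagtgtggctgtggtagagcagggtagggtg
Bckdhb: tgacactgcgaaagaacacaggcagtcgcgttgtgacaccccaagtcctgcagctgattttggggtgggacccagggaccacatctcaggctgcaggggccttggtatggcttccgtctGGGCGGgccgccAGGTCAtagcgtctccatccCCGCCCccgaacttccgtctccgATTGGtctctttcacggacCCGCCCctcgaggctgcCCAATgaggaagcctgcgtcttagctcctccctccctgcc
The Cpt1a window held 1 AGGTCA, 2 GC boxes and 1 CCAAT, and the Bckdhb window 1 AGGTCA, 3 GC boxes and 2 CCAAT, while none of the 3 motifs was in the Bcat2 window. No marked motif overlapped another. Of the members, 29 matched the promoter table, and 5 (Acaa2, Cpt1b, Dbt, Decr1 and Mut) did not. AGGTCA was in 20.7% of the matched members' windows, against 13.8% of the windows of all 27025 genes in that table. A GC box was in 62.1% against 32.9%, and CCAAT in 51.7% against 34.5%. The AGGTCA share rests on 6 of 29 windows. The 27025 genes were neither limited to those of the deposited values nor matched to the members by level. These shares were not tested and cannot show a trait particular to the members.

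The deposited values are FPKM, fragments scaled to transcript length and library size, so levels can be compared between genes per length. The number of reads behind them is unknown. The targeted gene, Bscl2, stood at 16.5, 16.9 and 18.9 FPKM in the BKO libraries, against 116, 104 and 106 FPKM in the Ctrl libraries, and it fell to 16.0% of the Ctrl mean (limma, Benjamini-Hochberg adjusted p = 3.95e-05), with no overlap between the groups. All 11 brown adipocyte markers were listed, with summed levels of 20757 to 23081 FPKM in BKO and 20232 to 21076 FPKM in Ctrl. The most abundant of them averaged 11162 FPKM, so the sum says little of the others. Single markers differed by -0.22 to 0.30 on the log2(FPKM + 1) scale. Every BKO library lay above every Ctrl library for 2 (18.2%, against 9.06% of all tested genes) and below for 1 (9.09%, against 6.82%). The 14 macrophage markers, all listed, summed to 182 to 226 FPKM in BKO and 64.2 to 102 FPKM in Ctrl, and the 8 fibroblast markers, also all listed, to 361 to 458 FPKM in BKO and 259.9 to 376 FPKM in Ctrl. Among the 13 macrophage markers tested, every BKO library lay above every Ctrl library for 11 (84.6%, against 9.06% of all tested genes). By limma, 4 of the 13 were called higher at an adjusted p below 0.05, against 0.158% of all tested genes. The same separation held for 2 of the 8 fibroblast markers (25%), none of them called. The 10 endothelial markers summed to 379 to 425 FPKM in BKO and 354 to 418 FPKM in Ctrl. Of the skeletal muscle markers, 13 of 16 were listed, and they summed to 213 to 529 FPKM in BKO and 164 to 758 FPKM in Ctrl, with the highest sum in Ctrl-1. No listed marker of these types was at 0 in any library. BKO-3 stood apart in the mitochondrial transfer RNAs, which made up 74.4% of its summed FPKM, against 45.1 to 64.5% in the other libraries. The median level of tested genes was 3.09 in BKO-3 and 3.02 to 3.11 in the others on the log2(FPKM + 1) scale.

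Most member transcripts stayed close to their Ctrl levels in BKO tissue. The BKO mean was between 0.9 and 1.1 times the Ctrl mean for 29 of 34 members. That is 85.3% of them, against 60.6% of all tested genes and 68.7% of those averaging 50 FPKM or more. All 34 members were tested, as were 11397 genes in all, those averaging 1 FPKM or more. By limma 0 members were called higher and 0 lower at an adjusted p below 0.05. Of all tested genes 0.167% were called, 18 higher (0.158%) and 1 lower (0.00877%), which was the targeted gene Bscl2. With 1 library left out at a time, the count higher over all genes ran from 5 without BKO-1 to 30 without BKO-3, and 0 members were among them. At an unadjusted p below 0.05, 4 members (Cpt1a, Bcat2, Bckdhb and Pcca) were higher and 0 lower, which is 11.8% and 0% of them, against 6.63% and 3.52% of all tested genes. Every BKO library lay above every Ctrl library for 3 members, 8.82% against 9.06% of all tested genes, and below for 3 members (Cpt2, Acadm and Hibch), 8.82% against 6.82%. In either direction the groups did not overlap for 6 members (17.6%), against 15.9% of all tested genes, so the members' counts without overlap were near the background. Means of 50 FPKM or more held for 32 of 34 members. Of all tested genes that abundant, mitochondrially encoded ones left out, 8.48% lay above, 9.70% below and 18.2% either way. At an unadjusted p below 0.05 by limma, 7.10% of those abundant genes were higher and 6.75% lower.

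The median difference of the members was -0.029 on the log2(FPKM + 1) scale, with -0.039 for fatty acid oxidation and -0.024 for branched-chain oxidation, beside 0.0056 over all tested genes. The branched-chain median was 0.016 without BKO-1, 0.0045 without BKO-2 and -0.073 without BKO-3, so its sign rested on single libraries, and the fatty acid oxidation median ran from -0.041 to -0.018 with 1 library left out. Ratios of means between 0.9 and 1.1 held for 18 of 19 in fatty acid oxidation and 11 of 15 in branched-chain oxidation. Among all tested genes, 60.6% had a ratio in that range, and 68.7% of the 1155 averaging 50 FPKM or more, mitochondrially encoded genes left out. The 95% interval of the difference lay within ±0.5 on the log2 scale, a change of 1.41-fold either way, for 32 of 34 members, Cpt1a and Bcat2 being the exceptions. That is 94.1% of the members, against 78.9% of all tested genes and 84.4% of those averaging 50 FPKM or more. For the members other than Cpt1a and Bcat2, differences larger than 1.41-fold lie outside the interval, while smaller ones are not excluded.

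**Figure D1:**
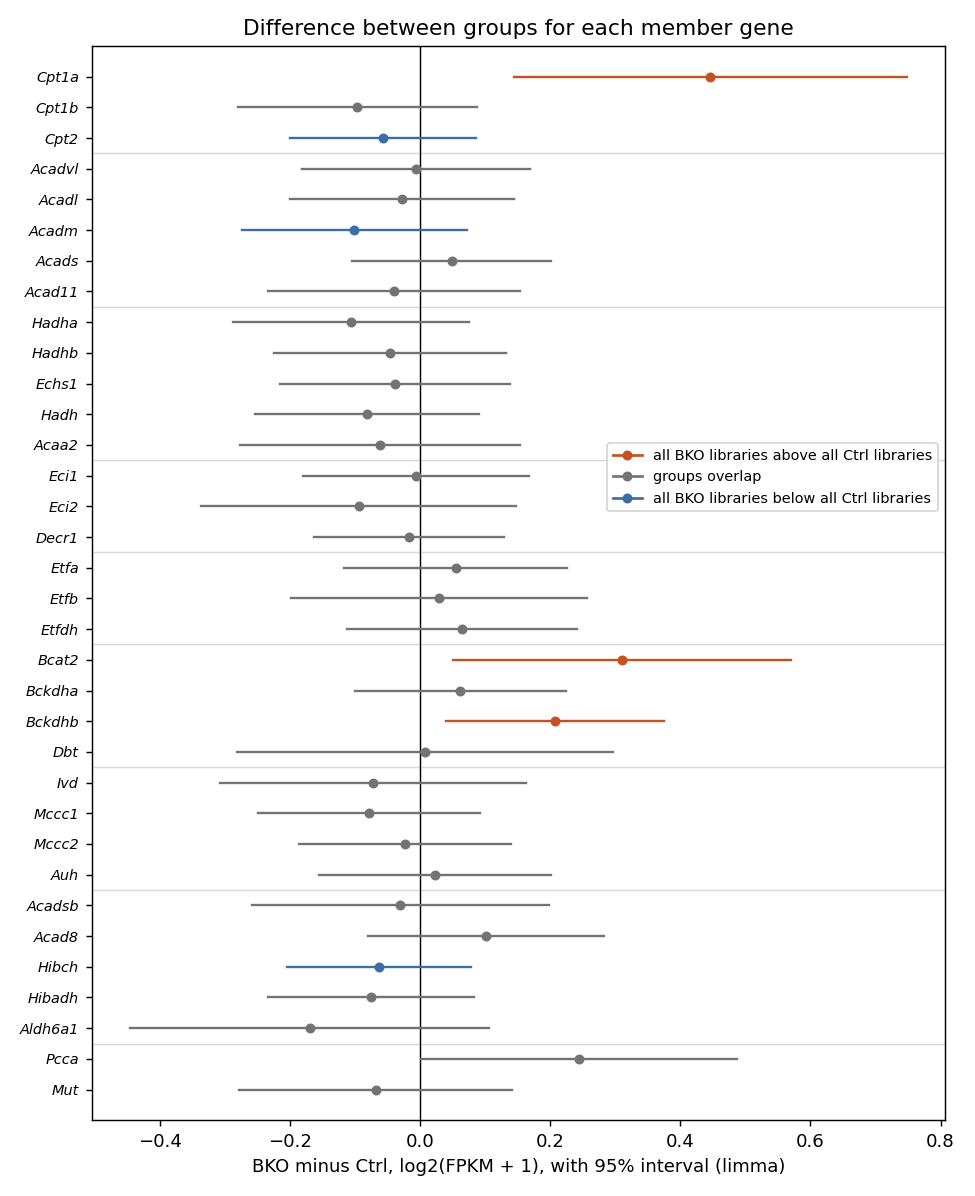
Difference between BKO and Ctrl for each of the 34 members, on the log2(FPKM + 1) scale, with its 95% interval from limma (n = 3 libraries per group); genes are grouped by role between grey lines. Most points lie near 0, and the intervals of Cpt1a, Bcat2, Bckdhb and Pcca lie above it.

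**Figure D2:**
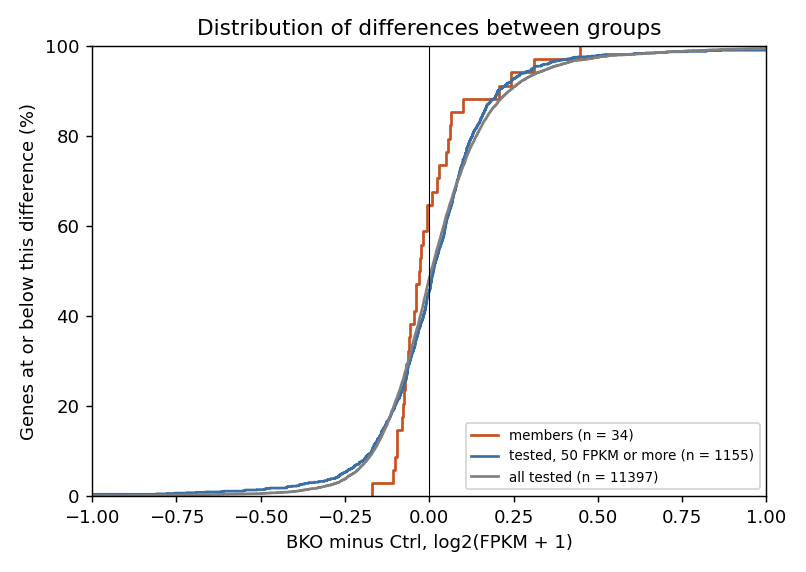
Cumulative share of genes (%) by their difference between BKO and Ctrl on the log2(FPKM + 1) scale, for the 34 members, for 1155 tested genes averaging 50 FPKM or more and for all 11397 tested genes; the axis is drawn from -1 to 1. The curve of the members is the steepest, running from -0.17 to 0.45.

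These genes were among the abundant transcripts of the tissue. The median member stood at the 97.4 percentile of tested genes by mean FPKM. Acadl, long-chain acyl-CoA dehydrogenase, had the highest mean level (1349 FPKM over all libraries), Hadhb came next (1332 FPKM), and Cpt1a was the lowest (4.76 FPKM). Acadl and Hadhb overlapped in both groups, so their order is not resolved, and neither is that of Acadm and Acaa2, the next in level. Summed over the members of fatty acid oxidation, libraries held 10470.0 to 11063 FPKM in BKO and 10919.5 to 11130.5 FPKM in Ctrl. The branched-chain members summed to 1779 to 1982 FPKM in BKO and 1798 to 1873 FPKM in Ctrl. Both sums overlapped between the groups. In bulk tissue, fewer cells of a type and less RNA per cell cannot be told apart.

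**Figure D3:**
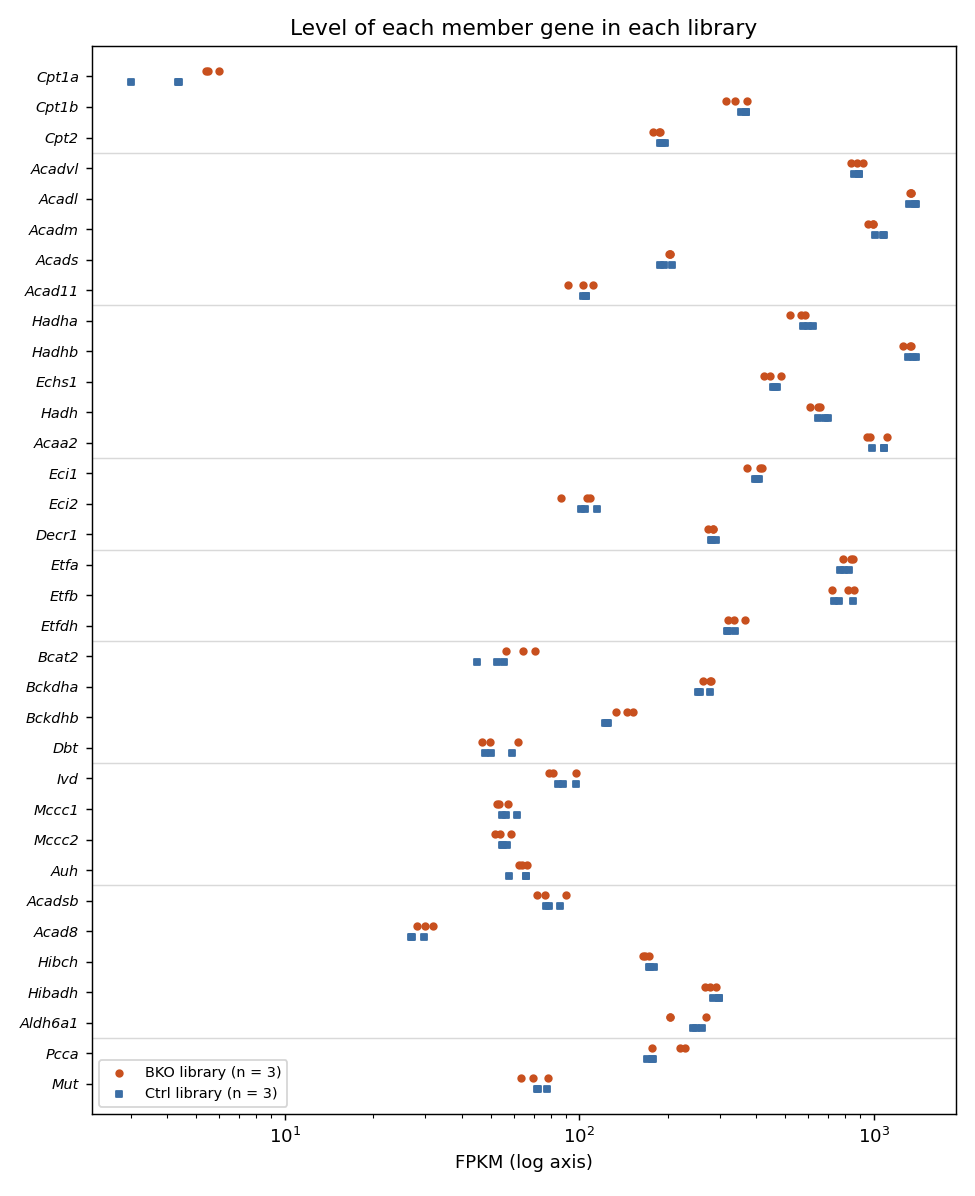
Level in FPKM (log axis) of the 34 members in each of the 3 BKO libraries (circles) and 3 Ctrl libraries (squares), grouped by role. Acadl, Hadhb, Acadm and Acaa2 lie between 948 and 1395 FPKM, and Cpt1a lies below 10 FPKM in every library.

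In the carnitine shuttle, the 2 forms of the outer membrane transferase that sets the rate of entry differed widely in level. Cpt1b, the form that prevails in muscle and brown adipocytes, stood at 316, 337 and 370.3 FPKM in BKO libraries 1, 2 and 3, against 355, 368 and 369.9 FPKM in Ctrl libraries 1, 2 and 3. Its groups overlapped, with BKO-3 above every Ctrl library, and the difference was -0.10 (95% interval -0.28 to 0.088), -0.16 without BKO-3 and -0.044 without BKO-1. The reads of Cpt1b could include some of its neighbour Chkb, whose transcripts can run into it, and Chkb stood at 135 ± 12 FPKM in BKO and 131 ± 4.19 FPKM in Ctrl. Cpt1a, the form of liver and most other cells, stood at 5.97, 5.41 and 5.48 FPKM in BKO libraries 1, 2 and 3, against 4.36, 4.33 and 3.0 FPKM in Ctrl libraries 1, 2 and 3. All BKO libraries were above all Ctrl libraries, and Ctrl-3 was the lowest. The mean was 5.62 ± 0.303 FPKM in BKO and 3.90 ± 0.774 FPKM in Ctrl (SD, n = 3), a ratio of 1.44, with a difference of 0.45 (SE 0.129, limma with Benjamini-Hochberg adjusted p = 0.320). Cpt1a made up 1.46 to 1.85% of the summed FPKM of both forms in BKO libraries and 0.806 to 1.22% in Ctrl libraries. On a log2 scale with a pseudocount of 5 the difference was 0.26. The summed macrophage markers given above were also higher in every BKO library than in any Ctrl library, and their part in the Cpt1a values was not tested. Cpt2, the inner transferase, stood at 188, 179 and 186 FPKM in the BKO libraries, against 188, 191 and 196 FPKM in the Ctrl libraries. BKO-1 lay below Ctrl-1 by less than 1 FPKM and the other BKO libraries lower still, so the groups did not overlap, and the difference was -0.057 (95% interval -0.20 to 0.086).

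The acyl-CoA dehydrogenases take the first step of each round and differ in chain length. Acadl stood at 1334, 1337 and 1337 FPKM in the BKO libraries, against 1314, 1382 and 1391 FPKM in the Ctrl libraries. The 3 BKO libraries were almost equal and lay within the range of the Ctrl libraries. Acadm, the medium-chain enzyme, stood at 956, 994 and 999 FPKM in the BKO libraries, against 1008, 1076 and 1081 FPKM in the Ctrl libraries. Each BKO library lay below each Ctrl library, with a ratio of means of 0.932, and the difference of -0.10 did not pass (SE 0.0737, limma with Benjamini-Hochberg adjusted p = 0.696). Acadvl, the very long-chain enzyme, stood at 878 ± 43.2 FPKM in BKO and 882 ± 20.3 FPKM in Ctrl (SD, n = 3). Acads, the short-chain enzyme, stood at 203 ± 1.42 FPKM in BKO and 196 ± 9.76 FPKM in Ctrl, and Acad11, a further member of the family, at 102 ± 9.95 FPKM in BKO and 105 ± 1.67 FPKM in Ctrl. Groups overlapped for these 3.

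The trifunctional protein takes long chains through the remaining steps, and the matrix enzymes Echs1, Hadh and Acaa2 take shorter ones. Hadhb, the thiolase subunit of the trifunctional protein, stood at 1338, 1333 and 1262 FPKM in the BKO libraries, against 1309, 1395 and 1356 FPKM in the Ctrl libraries. The lowest value was in BKO-3 and the highest in Ctrl-2, and the groups overlapped. Acaa2, the matrix thiolase, stood at 948, 1108 and 971 FPKM in the BKO libraries, against 1081, 1087 and 987 FPKM in the Ctrl libraries, with the highest value in BKO-2 and the lowest in BKO-1. Hadha, which carries the hydratase and long-chain dehydrogenase of the trifunctional protein, stood at 557 ± 33.5 FPKM in BKO and 599 ± 23.9 FPKM in Ctrl (SD, n = 3), Echs1, the short-chain hydratase, at 451 ± 31.1 FPKM in BKO and 463 ± 7.96 FPKM in Ctrl, and Hadh, the short-chain hydroxyacyl-CoA dehydrogenase, at 639 ± 26.3 FPKM in BKO and 677 ± 27.2 FPKM in Ctrl. All 5 differences were negative, between -0.11 and -0.039, and none passed by limma at an adjusted or an unadjusted p below 0.05. Each of the 5 intervals included 0, and the difference of Echs1 was 0.0064 without BKO-1. Negative differences made up 73.7% of the 19 fatty acid oxidation members, beside 48.4% of all tested genes.

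The auxiliary enzymes, which prepare unsaturated chains, had differences from -0.095 to -0.0059. Eci1, the mitochondrial enoyl-CoA isomerase, stood at 370.4, 418 and 412 FPKM in the BKO libraries, against 409, 394 and 401 FPKM in the Ctrl libraries. The groups overlapped, and the lowest value was in BKO-1. Decr1, the dienoyl-CoA reductase, stood at 284, 286 and 273 FPKM in the BKO libraries, against 282, 291 and 280.5 FPKM in the Ctrl libraries, again with overlapping groups. Eci2, an isomerase of mitochondria and peroxisomes, stood at 101 ± 12.2 FPKM in BKO and 107 ± 7.16 FPKM in Ctrl (SD, n = 3). Its reads could have been split with those of Eci3, a similar gene, which stood at 2.05 ± 0.913 FPKM in BKO and 5.06 ± 1.52 FPKM in Ctrl and did not pass either (limma with Benjamini-Hochberg adjusted p = 0.274, unadjusted p = 0.00605). Eci3 is not a member and was named after its values were seen.

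The electron transfer flavoprotein collects electrons from these dehydrogenases and from those of branched-chain oxidation. Its alpha subunit gene, Etfa, stood at 789, 850.0 and 839.8 FPKM in the BKO libraries, against 771, 792 and 823 FPKM in the Ctrl libraries. Its beta subunit gene, Etfb, stood at 722, 858 and 820.3 FPKM in the BKO libraries, against 849.8, 766 and 736 FPKM in the Ctrl libraries. Both overlapped between the groups, and the highest Etfb values were in BKO-2 and Ctrl-1. Etfdh, the oxidoreductase that hands the electrons to ubiquinone, stood at 340.3 ± 23.1 FPKM in BKO and 325 ± 11 FPKM in Ctrl (SD, n = 3), with an interval of -0.11 to 0.24.

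In branched-chain oxidation, the shared first steps held Bcat2 and Bckdhb, which with Cpt1a and Pcca had the highest ratios of all members. Bcat2, the mitochondrial transaminase, stood at 56.2, 64.3 and 70.6 FPKM in BKO libraries 1, 2 and 3, against 55.8, 45.2 and 52.6 FPKM in Ctrl libraries 1, 2 and 3. The lowest BKO library lay just above the highest Ctrl library, BKO-3 was the highest of all and Ctrl-2 the lowest. The ratio of means was 1.24, with a difference of 0.31 (SE 0.111, limma with Benjamini-Hochberg adjusted p = 0.416). Bckdhb, the beta subunit of the decarboxylase of the branched-chain dehydrogenase complex, stood at 133, 145 and 153 FPKM in BKO libraries 1, 2 and 3, against 123, 124 and 126 FPKM in Ctrl libraries 1, 2 and 3. The Ctrl libraries were close together and all BKO libraries lay above them, with a ratio of 1.16 and a difference of 0.21 (SE 0.0712, limma with Benjamini-Hochberg adjusted p = 0.410). Bckdha, the alpha subunit of the same decarboxylase, stood at 278, 280.4 and 264 FPKM in the BKO libraries, against 278, 257 and 253 FPKM in the Ctrl libraries, and the groups overlapped. Dbt, the transacylase core of the complex, stood at 52.9 ± 7.92 FPKM in BKO and 52.4 ± 5.82 FPKM in Ctrl (SD, n = 3). All 4 differences of this group were positive, from 0.0078 for Dbt to 0.31 for Bcat2, although under quantile normalization those of Dbt and Bckdha were -0.024 and -0.0049, that of Dbt was -0.0057 under median ratio rescaling, and with 1 library left out it ran from -0.11 to 0.095. None passed over all genes.

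In the leucine arm, beyond the shared complex, the groups overlapped for every member. Ivd, isovaleryl-CoA dehydrogenase, stood at 81.5, 78.9 and 97.9 FPKM in the BKO libraries, against 97.7, 84.9 and 88.3 FPKM in the Ctrl libraries. Auh, the methylglutaconyl-CoA hydratase, stood at 62.3, 66.7 and 64.0 FPKM in the BKO libraries, against 66.1, 66.2 and 57.9 FPKM in the Ctrl libraries. For Ivd, BKO-1 and BKO-2 lay below every Ctrl library and BKO-3 just above them all, and its difference of -0.072 was -0.17 without BKO-3, -0.014 without BKO-2 and -0.015 without Ctrl-1. For Auh, the lowest and the second lowest values were in Ctrl-3 and BKO-1, and the highest in BKO-2. Mccc1 and Mccc2, the subunits of methylcrotonyl-CoA carboxylase, stood at 54.4 ± 2.47 FPKM in BKO and 57.6 ± 3.57 FPKM in Ctrl and at 54.7 ± 3.51 FPKM in BKO and 55.6 ± 1.24 FPKM in Ctrl (SD, n = 3). Differences in this arm ran from -0.079 to 0.023.

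In the valine and isoleucine arms, Hibadh, hydroxyisobutyrate dehydrogenase, stood at 267, 277 and 292 FPKM in the BKO libraries, against 297, 284 and 299 FPKM in the Ctrl libraries. The groups overlapped, with BKO-1 and BKO-2 below all Ctrl libraries. Hibch, the hydrolase that acts just before it, stood at 165, 167 and 172 FPKM in the BKO libraries, against 173, 180.0 and 174 FPKM in the Ctrl libraries. Each BKO library lay below each Ctrl library, BKO-3 by less than 1 FPKM, and the difference was -0.064 (95% interval -0.21 to 0.078). Aldh6a1, the methylmalonate semialdehyde dehydrogenase, stood at 204, 203 and 269 FPKM in BKO libraries 1, 2 and 3, against 261, 244 and 249 FPKM in Ctrl libraries 1, 2 and 3. BKO-1 and BKO-2 were the lowest and BKO-3 was the highest, so the difference of -0.17 (SE 0.118, limma with Benjamini-Hochberg adjusted p = 0.679) was -0.30 without BKO-3, where it did not pass either (adjusted p = 0.168, and 0.168 to 0.915 over all settings). Acadsb, the short branched-chain acyl-CoA dehydrogenase, stood at 79.4 ± 9.54 FPKM in BKO and 80.9 ± 4.66 FPKM in Ctrl (SD, n = 3), and Acad8, isobutyryl-CoA dehydrogenase, at 30.0 ± 1.94 FPKM in BKO and 27.9 ± 1.61 FPKM in Ctrl.

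In the path from propionyl-CoA to succinyl-CoA, Pcca, the alpha subunit of propionyl-CoA carboxylase, stood at 219.6, 177 and 229 FPKM in BKO libraries 1, 2 and 3, against 177, 178 and 169.8 FPKM in Ctrl libraries 1, 2 and 3. BKO-1 and BKO-3 lay above every Ctrl library, while BKO-2 lay among them. The ratio of means was 1.19 and the difference 0.24 (SE 0.104, limma with Benjamini-Hochberg adjusted p = 0.490), and without BKO-2 the difference was 0.36 (adjusted p = 0.354, and 0.277 to 0.835 over all settings). Mut, methylmalonyl-CoA mutase, stood at 69.9, 63.6 and 78.6 FPKM in the BKO libraries, against 71.7, 72.5 and 77.6 FPKM in the Ctrl libraries, and the groups overlapped.

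**Figure D4:**
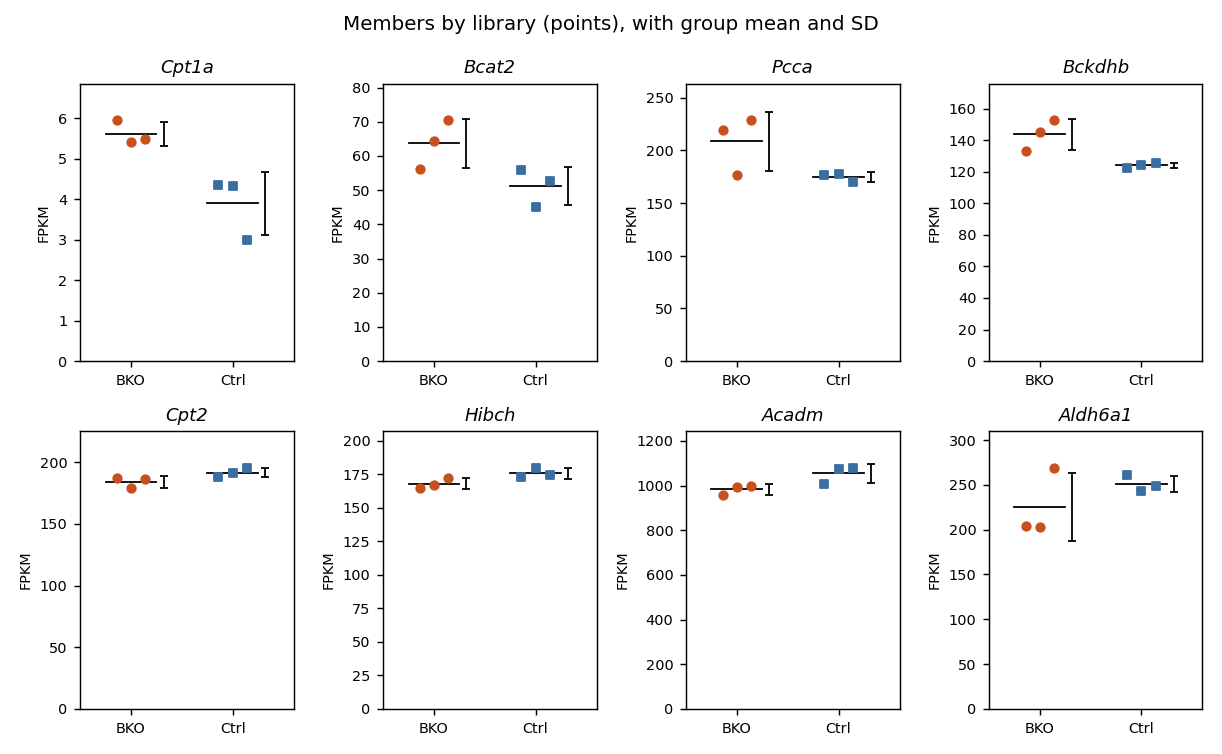
FPKM by library for the 6 members whose groups did not overlap, with Pcca and Aldh6a1, whose BKO libraries disagreed; points are libraries, horizontal lines the group means and bars the SD (n = 3). The ratio of means ranged from 1.44 for Cpt1a and 1.24 for Bcat2 to 0.961 for Cpt2, 0.957 for Hibch and 0.932 for Acadm among the 6.

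The members varied more between the BKO libraries than between the Ctrl libraries. The coefficient of variation over 3 libraries had a median of 6.45% in BKO and 3.76% in Ctrl, and it was larger in BKO for 27 of 34 members, 79.4% of them. Over all tested genes it was larger in BKO for 54.3%, and for 64.3% of those averaging 50 FPKM or more. BKO-3 held the highest value of the 6 libraries for 9 of 15 branched-chain members and for 3 of 19 fatty acid oxidation members. BKO-1 held the lowest value for 8 fatty acid oxidation members and for 3 branched-chain members. How often these libraries held the highest or lowest value over all tested genes was not counted. These counts therefore cannot show a trait particular to the members. BKO-3 was also the library with the most mitochondrial transfer RNA, and the part of that in its member values was not tested.

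Around the members, further genes of both pathways were read from lists of their own. Of 15 other genes of fatty acid oxidation and ketone handling, none passed by limma over all genes, and the median difference was -0.011. At an unadjusted p below 0.05 by limma, 1 (Oxct1) was higher and 1 (Crat) lower. Each is 6.67% of the list, against 6.63% higher and 3.52% lower among all tested genes. Crat, the carnitine acetyltransferase that exports acetyl groups as acetylcarnitine, stood at 213, 218 and 245 FPKM in the BKO libraries, against 284, 276 and 267 FPKM in the Ctrl libraries. Each BKO library lay below each Ctrl library, with a ratio of 0.816 and a difference of -0.29 (SE 0.0764, limma with Benjamini-Hochberg adjusted p = 0.274). Oxct1, which activates ketone bodies for oxidation, stood at 95.2, 90.8 and 98.1 FPKM in the BKO libraries, against 77.7, 78.5 and 90.9 FPKM in the Ctrl libraries. Ctrl-3 lay just above BKO-2, so the groups overlapped (difference 0.20, limma with Benjamini-Hochberg adjusted p = 0.465). The most abundant genes of this list were Acsl1, the acyl-CoA synthetase that primes long chains, at 586, 567 and 763 FPKM in the BKO libraries, against 739, 759.7 and 714 FPKM in the Ctrl libraries, and Slc25a20, the carnitine translocase, at 256 ± 20.0 FPKM in BKO and 276 ± 4.59 FPKM in Ctrl. For Acsl1, BKO-1 and BKO-2 lay below every Ctrl library and BKO-3 above them all, as for Aldh6a1. Acad9, named after its values were seen, was the other gene of the list with every BKO library below every Ctrl library (21.4 ± 3.75 FPKM in BKO and 25.4 ± 1.17 FPKM in Ctrl). Crat and Acad9 make up 13.3% of the list, against 6.82% of all tested genes with every BKO library below.

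Of 13 other genes of branched-chain and propionate metabolism, 4 of which are also in the list before, none passed by limma over all genes. Their median difference was -0.034. At an unadjusted p below 0.05 by limma, 1 (Oxct1) was higher and 1 (Bckdk) lower. Each is 7.69% of the list, against 6.63% higher and 3.52% lower among all tested genes. Bckdk, the kinase that switches off the branched-chain dehydrogenase complex, stood at 63.1, 68.6 and 63.3 FPKM in the BKO libraries, against 77.5, 75.8 and 73.7 FPKM in the Ctrl libraries. Each BKO library lay below each Ctrl library, with a ratio of 0.860 and a difference of -0.22 (SE 0.0649, limma with Benjamini-Hochberg adjusted p = 0.341). Per length, Bckdk over Bckdhb was 0.454 ± 0.0341 in BKO and 0.610 ± 0.0226 in Ctrl (SD, n = 3), a ratio chosen after the values were seen. With Bckdk lower and Bckdhb higher in every BKO library, this ratio had to separate the groups and adds nothing to them. Ppm1k, the phosphatase that counters the kinase, stood at 8.01 ± 1.57 FPKM in BKO and 8.27 ± 0.608 FPKM in Ctrl. Dld, the shared lipoamide dehydrogenase, stood at 384 ± 6.56 FPKM in BKO and 410.4 ± 19.6 FPKM in Ctrl and Acat1, the thiolase of isoleucine and ketone metabolism, at 224 ± 11.6 FPKM in BKO and 228 ± 11.4 FPKM in Ctrl. Slc25a44, a mitochondrial carrier of branched-chain amino acids in mouse brown fat, stood at 29.0, 25.3 and 27.7 FPKM in the BKO libraries, against 30.2, 29.6 and 29.4 FPKM in the Ctrl libraries. Its BKO libraries all lay below the Ctrl libraries, and the difference of -0.12 did not pass (limma with Benjamini-Hochberg adjusted p = 0.627). Bckdk and Slc25a44 make up 15.4% of the list, against 6.82% of all tested genes with every BKO library below. Ppm1k and Slc25a44 were named after their values were seen.

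Among 12 transcriptional regulators of oxidative genes, none passed by limma over all genes. At an unadjusted p below 0.05 by limma, 2 (Ppara and Nrip1) were lower and 0 higher. That is 16.7% and 0% of this short list, against 3.52% and 6.63% of all tested genes. Ppara, the fatty acid-activated nuclear receptor that drives many of these enzymes in liver, stood at 34.1, 31.0 and 45.2 FPKM in the BKO libraries, against 50.2, 51.0 and 41.5 FPKM in the Ctrl libraries. The lowest were BKO-1 and BKO-2, and BKO-3 lay above Ctrl-3 (difference -0.37, SE 0.148, limma with Benjamini-Hochberg adjusted p = 0.454). Nrip1, a corepressor of nuclear receptors, stood at 2.19, 2.14 and 2.76 FPKM in the BKO libraries, against 3.19, 2.93 and 3.32 FPKM in the Ctrl libraries, without overlap (difference -0.31, SE 0.105, limma with Benjamini-Hochberg adjusted p = 0.410). Ncor1, another corepressor, named after its values were seen, also had every BKO library below every Ctrl library (27.0 ± 2.43 FPKM in BKO and 31.0 ± 3.20 FPKM in Ctrl). Nrip1 and Ncor1 make up 16.7% of the list, against 6.82% of all tested genes with every BKO library below. Pparg, the receptor of adipocyte identity, stood at 113 ± 16.8 FPKM in BKO and 102 ± 13.7 FPKM in Ctrl (SD, n = 3), and Esrra, the receptor that acts on mitochondrial genes, at 55.9 ± 4.53 FPKM in BKO and 54.2 ± 1.54 FPKM in Ctrl. Ppargc1a, a coactivator of both, named after its values were seen, ranged from 12.8 to 38.4 FPKM in BKO and from 9.62 to 38.7 FPKM in Ctrl. Its spread within either group exceeded the difference between their means.

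**Figure D5:**
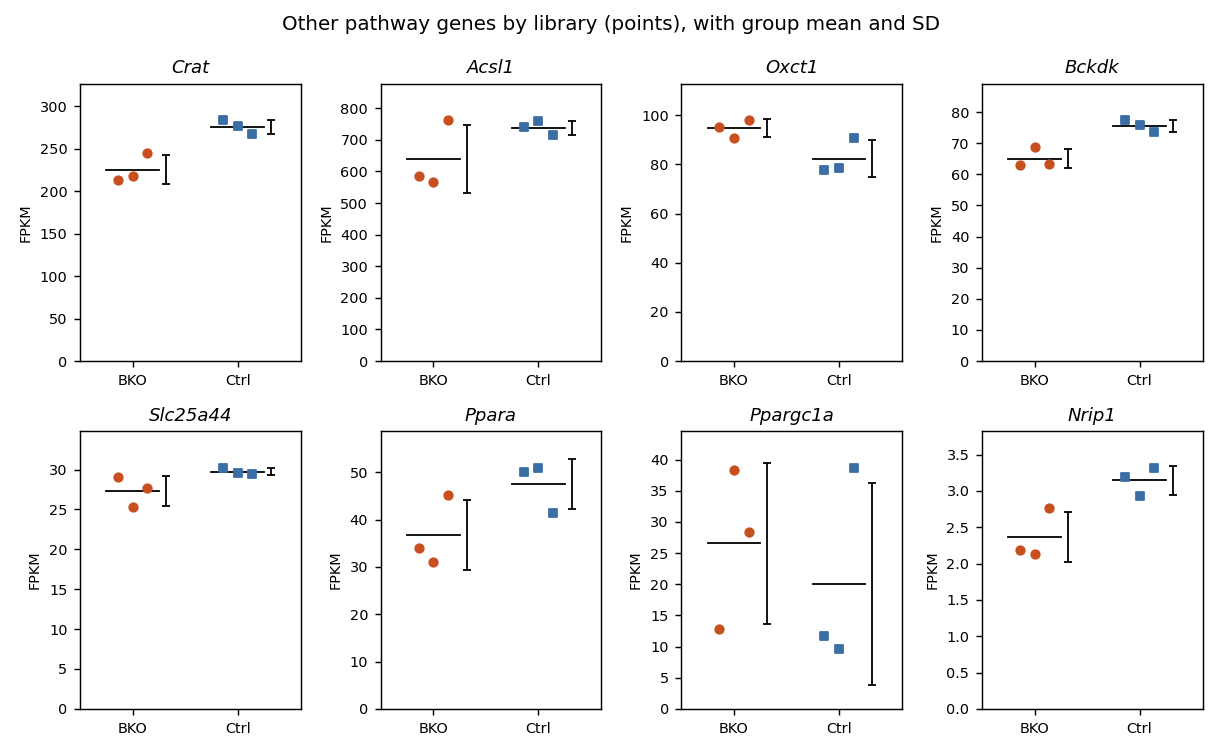
FPKM by library for 8 genes outside the member list; points are libraries, horizontal lines the group means and bars the SD (n = 3). Crat, Bckdk, Slc25a44 and Nrip1 are lower in every BKO library than in any Ctrl library, while Ppargc1a spans the same range in both groups.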

How the data were processed

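RNA of brown adipose tissue was extracted with Trizol and made into libraries with a TruSeq RNA kit, per the labels' protocols. The deposited values are FPKM per gene symbol, made by the authors with CASAVA 1.8, TopHat2 2.0.12 and Cufflinks 2.2.1 on the build NCBIM37, per the submitters' processing notes, while settings, annotation and strand handling are not stated there. Columns were assigned through the labels' descriptions, which name the Ctrl libraries MT and the BKO libraries WT, and Bscl2 served as a check.

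Values were transformed as log2(FPKM + 1), which understates changes of low genes. Genes averaging 1 FPKM or more were fitted with limma 3.58.1 (R 4.3.3), using an intensity trend and no covariate, and p-values were adjusted by Benjamini-Hochberg over all 11397 tested genes. Ratios are of group mean FPKM. FPKM carry no read counts, so depth is unknown and no count model was used. No value of BKO-3 lies between 0 and 0.486 FPKM, while the other libraries hold 341 to 632 such values, so genes low in BKO-3 may be missing from the table. The members, gene lists and markers were chosen with earlier results of these data known, and no test was made over a list.

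Library values were given for the carnitine transferases, for the 2 most abundant members of each other role, and for members whose groups did not overlap. Of the other lists, the 2 most abundant genes and those at an unadjusted p below 0.05 were named, and any further gene is marked in the text as named after its values were seen. The fit was tested on simulated data. Alternatives varied the pseudocount, the filter, the scaling, the empirical Bayes step and the threshold, weighted the libraries, added the replicate number or a muscle score to the fit, or left out 1 library.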

Additional observations from a re-analysis of the deposited data

How the results depend on the processing

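No member passed at an adjusted p below 0.05 or 0.1 in any alternative with a test, the lowest adjusted p of any member being 0.168 (Aldh6a1 without BKO-3). Without adjustment, 4 members were higher at an unadjusted p below 0.05, against 0 with adjustment. The median difference of the members was -0.029 in the main fit. Over the alternatives it ran from -0.075 with quantile normalization to -0.0063 without BKO-1. These moves were below 0.108, the pooled SD within groups of the members' median log2(FPKM + 1) level per library. That SD is a spread of levels and exceeds the difference itself, so it is a wide bound. The range was -0.082 to -0.018 for fatty acid oxidation and -0.073 to 0.016 for branched-chain oxidation. Cpt1a kept a positive difference (0.26 to 0.53 on the log2 scale, limma adjusted p 0.172 to 0.677), as did Bcat2 (0.22 to 0.40), Bckdhb (0.16 to 0.26) and Pcca (0.17 to 0.36). Both ends for Cpt1a came from other pseudocounts, 5 and 0.1, which change the scale. With 1 library left out, the Cpt1a difference ran from 0.31 without Ctrl-3 to 0.52 without Ctrl-1. Cpt1a averaged less than 5 FPKM and was not tested with the filter at that level. Over all genes, the count higher in BKO was 18, and 11 with no filter, 9 with a filter at 5 FPKM, 32 with robust empirical Bayes, 48 with library weights, 8 with the muscle score, 33 at an adjusted p below 0.1, 756 at an unadjusted p below 0.05 and 5 to 30 with 1 library left out (5 without BKO-1, 8 without Ctrl-2, 11 without BKO-2, 11 without Ctrl-3 and 30 without BKO-3). The count lower was 1, and 6 with library weights, 401 at an unadjusted p below 0.05 and 1 to 3 with 1 library left out (3 without Ctrl-1, and 2 each without BKO-2, BKO-3 or Ctrl-3). The cause was not tested. Small differences changed sign with the scaling, Dbt to -0.0057 with median ratio rescaling and -0.024 with quantile normalization, Acads to -0.017 and Bckdha to -0.0049 with quantile normalization, and Auh to -0.021 with library weights. They also changed sign with 1 library left out, where the differences ran over -0.042 to 0.029 for Acadvl, -0.11 to 0.032 for Acad11, -0.091 to 0.0064 for Echs1, -0.038 to 0.049 for Eci1, -0.16 to 0.0087 for Eci2, -0.029 to 0.0029 for Decr1, -0.024 to 0.10 for Etfb, -0.11 to 0.095 for Dbt, -0.073 to 0.016 for Mccc2, -0.041 to 0.054 for Auh, -0.12 to 0.038 for Acadsb and -0.15 to 0.0045 for Mut. With the replicate number as a block, 23 genes were higher and 2 lower, and no member passed. Same-numbered libraries deviated together for number 1 (r = 0.20 across genes) and not for 2 (-0.10) or 3 (-0.10). The libraries of number 1 alone correlated best with their own number. The highest of all these correlations was between unlike numbers, BKO-2 and Ctrl-3 (r = 0.22). The labels do not say what the numbers mark, and such correlations cannot show whether same-numbered samples are paired. With unknown depth, no counting limit can be given.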

Other observations

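Ratios between partner enzymes were computed per length in each library. Hadha over Hadhb of the trifunctional protein was 0.425 ± 0.0123 in BKO and 0.443 ± 0.00387 in Ctrl (SD, n = 3), with every BKO library below every Ctrl library, from 0.412 to 0.436 in BKO and from 0.440 to 0.447 in Ctrl. Etfa over Etfb was 1.04 ± 0.0522 in BKO and 1.02 ± 0.106 in Ctrl, Mccc1 over Mccc2 0.999 ± 0.105 in BKO and 1.04 ± 0.0790 in Ctrl, and Dbt over Bckdha 0.194 ± 0.0357 in BKO and 0.200 ± 0.0288 in Ctrl, each with overlapping groups. For the decarboxylase subunits, Bckdhb over Bckdha was 0.525 ± 0.0505 in BKO and 0.473 ± 0.0289 in Ctrl, and its groups overlapped too. Etfdh over Etfa, at 0.412 ± 0.0308 in BKO and 0.409 ± 0.00293 in Ctrl, also overlapped. So did Bcat2 over Bckdha, at 0.233 ± 0.0326 in BKO and 0.195 ± 0.0169 in Ctrl. Acadl over Acadvl, enzymes for overlapping chain lengths, was 1.52 ± 0.0748 in BKO and 1.55 ± 0.0753 in Ctrl. These ratios are given as descriptions, without a test.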
